A study of Mus musculus with 2 samples.

Results

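The immunoglobulin and T cell receptor loci were taken as all 50 kb windows of the analysed table within 5 spans of the mm10 assembly, chosen by position. The spans were chr12:113000001-116500000 for Igh, chr6:67500001-71000000 for Igk, chr16:18900001-19400000 for Igl, chr14:52000001-55000000 for Tcra/Tcrd and chr6:40800001-41800000 for Tcrb. They held 214 of the 43941 windows of the table, with 66 in Igh, 70 in Igk, 10 in Igl, 49 in Tcra/Tcrd and 19 in Tcrb. The values come from Promoter Capture Hi-C, which enriches ligation products that join a promoter fragment to any other fragment of the genome, in F121-6 cells. F121-6 is a female mouse embryonic stem cell line from a cross of the 129 and Cas strains, so each chromosome pair has a 129 and a Cas copy that can be told apart by sequence. The cells were untreated, formed 1 genotype, came from 1 line, and were grown with LIF on inactivated mouse embryonic fibroblasts, and their share in the libraries is not stated. The 2 samples, labelled replicates 1 and 2, are pooled in the table, so each window has 1 interaction count and 1 interaction distance for the 129 allele and 1 of each for the Cas allele, and the spread between samples cannot be given.

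B and T cells assemble receptor genes from variable (V), diversity (D) and joining (J) segments, which the RAG1 and RAG2 proteins cut and the joining enzymes of double-strand break repair join next to a constant (C) region. The immunoglobulin loci Igh, Igk and Igl encode the heavy, kappa and lambda chains, and Tcra, Tcrb and Tcrd encode T cell receptor chains. In developing lymphocytes the large loci fold so that distant V segments come near the D and J segments, and 1 allele is usually expressed. Embryonic stem cells do not rearrange these loci, so the values below describe the loci in their unrearranged, germline form. Expression was not part of the values used here, so the labelled cell type was not checked against marker genes.

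The spans also hold ordinary protein-coding genes, and the promoters of 5 of them are shown here because the results return to their windows. Hnrnpc, a nuclear RNA-binding protein, and Rpgrip1, a protein of the photoreceptor cilium, share a window in the flank of the alpha variable segments that had more interactions on Cas. Zfp386, a zinc finger protein gene, lies at the end of the Igh variable segments, Dad1, a subunit of oligosaccharyltransferase, lies beside the alpha constant gene Trac, and Rpia, an enzyme of the pentose phosphate pathway, lies beside the kappa constant gene Igkc. The sequences run 5′ to 3′ on the strand of the gene and are from RefSeq, GRCm38.p6. They cover 250 bases before and 50 bases after a start listed for each gene. For Rpgrip1 that start lies well inside the gene, whose span begins at chr14:52104241. Capitals mark the CCAAT box (CCAAT or ATTGG) and the GC box (GGGCGG or CCGCCC).
Hnrnpc: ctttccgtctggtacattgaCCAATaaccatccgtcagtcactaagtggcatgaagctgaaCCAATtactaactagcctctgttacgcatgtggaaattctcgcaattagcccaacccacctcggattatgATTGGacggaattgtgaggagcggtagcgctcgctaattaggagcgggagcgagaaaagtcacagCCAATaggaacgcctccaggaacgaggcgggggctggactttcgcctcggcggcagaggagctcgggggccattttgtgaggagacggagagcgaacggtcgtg
Rpgrip1: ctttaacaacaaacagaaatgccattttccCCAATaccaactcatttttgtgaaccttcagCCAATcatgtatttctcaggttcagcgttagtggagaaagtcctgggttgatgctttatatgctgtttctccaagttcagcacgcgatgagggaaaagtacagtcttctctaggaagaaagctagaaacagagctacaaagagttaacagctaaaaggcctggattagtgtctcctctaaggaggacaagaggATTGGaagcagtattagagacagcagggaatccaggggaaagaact
Zfp386: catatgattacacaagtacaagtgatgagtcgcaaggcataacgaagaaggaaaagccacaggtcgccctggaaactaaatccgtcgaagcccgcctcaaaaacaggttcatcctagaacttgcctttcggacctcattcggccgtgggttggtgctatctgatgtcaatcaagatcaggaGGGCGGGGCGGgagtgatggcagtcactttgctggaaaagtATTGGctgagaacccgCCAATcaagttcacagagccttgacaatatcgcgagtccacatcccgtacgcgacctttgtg
Dad1: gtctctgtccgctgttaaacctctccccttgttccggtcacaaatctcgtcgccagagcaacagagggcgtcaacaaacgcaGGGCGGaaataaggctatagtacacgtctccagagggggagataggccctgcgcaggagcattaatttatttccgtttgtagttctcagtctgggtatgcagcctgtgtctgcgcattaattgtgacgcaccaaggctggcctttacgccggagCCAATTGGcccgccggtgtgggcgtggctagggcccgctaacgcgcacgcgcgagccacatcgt
Rpia: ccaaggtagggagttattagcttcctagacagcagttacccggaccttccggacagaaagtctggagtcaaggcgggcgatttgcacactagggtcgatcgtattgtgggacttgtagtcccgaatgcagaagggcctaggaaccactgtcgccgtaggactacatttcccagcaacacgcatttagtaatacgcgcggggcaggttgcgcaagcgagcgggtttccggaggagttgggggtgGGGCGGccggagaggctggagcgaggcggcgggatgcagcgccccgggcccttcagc
The Hnrnpc promoter is at chr14:52103972-52104271 on the minus strand and holds 4 CCAAT boxes, and the Rpgrip1 promoter at chr14:52110653-52110952 on the plus strand holds 3. Neither holds a GC box in these letters. The Zfp386 promoter at chr12:116047474-116047773 on the plus strand holds 2 CCAAT boxes and 2 GC boxes that overlap by a single base. The Dad1 promoter at chr14:54253880-54254179 on the minus strand holds 2 CCAAT boxes that overlap on opposite strands and 1 GC box. The Rpia promoter at chr6:70792126-70792425 on the minus strand holds 1 GC box. Over the 124 promoters of the 5 spans in the table of sequences, 42 held a CCAAT box and 38 a GC box, against 37.4% and 35.7% of all 32851 promoters. The HindIII site AAGCTT, where the chromatin was cut, occurred in 14 of the 124 and in 7.45% of all, and in none of the 5 shown. None of the 651 receptor segments had a promoter in that table, so the octamer of immunoglobulin promoters was not looked for in V segments. Promoters are given for the letters they hold, and nothing about factor binding was measured.

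The 5 spans would hold 230 windows, of which 16 were not analysed here, 11 of them in Tcra/Tcrd, 4 in Igh and 1 in Tcrb. Over the table, from the first to the last window of each chromosome, 8.3% of windows were not analysed here. RefSeq places 520 V segments, 131 D, J or C segments and 96 protein-coding genes in the spans. Of the V segments, 52 lay only in windows not analysed here, 7 in Igh and 45 in Tcra/Tcrd. Each of those 45 is an alpha variable segment whose name carries a d or an n, as 74 of the segments there do. These names mark the copies of a repeated stretch of the locus, so counts in the remaining copies are uncertain, because reads that match more than 1 copy may have been split or dropped.

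The table summed to 50842396 interactions on 129 against 37470557 on Cas, and 57.57% of interactions on the autosomes were on 129. Window ratios are therefore given as log2((129 + 1)/(Cas + 1)) minus the autosomal median of 0.45, and called centred log2 ratios; 0 is the median window and a positive value means more 129 than the median. The receptor loci summed to 202264 on 129 against 169275 on Cas, giving a share of 54.44%. Of their 214 windows, 204 had the 10 interactions needed for the test, and the other 10, 6 in Igh, 2 in Igk and 2 in Tcra/Tcrd, held V segments only and were counted without a ratio. All intervals are exact Clopper-Pearson 95% intervals and cover counting error only.

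The stretches of V segments in Igh, Igk and the distal part of Tcra/Tcrd were among the most sparsely counted windows of the table. The median window had a summed count of 77 in Igh and 162.5 in Igk, against 974 over all windows. None of the 627 spans of 3.5 Mb over the autosomes had a lower median count than Igh, and 2 of them had a lower one than Igk. The Igl median was 781.5, the Tcra/Tcrd median 2685 and the Tcrb median 3043. These last loci were not low: 1749 of 4341 spans of 0.5 Mb lay under Igl, 666 of 724 spans of 3 Mb under Tcra/Tcrd, and 1928 of 2168 spans of 1 Mb under Tcrb.

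The count differed with what a window held. The 136 windows with V segments only had a median summed count of 86.5, the 14 windows with D, J or C segments 1420, the 5 with V segments and coding genes 2367, and the 49 with coding genes only 4459. The 10 windows of the loci that overlap none of these had a median of 1272, far above the V windows. The median was 553 in all windows of the table without a coding gene and 1795 in those with one. The V windows differed between loci, with medians of 44.5 in Igh, 130 in Igk, 68 in Tcra/Tcrd and 2377.5 in Tcrb. As another comparison of clustered receptor families, the 431 windows outside the loci with olfactory receptor genes had a median of 3952, and the 219 with vomeronasal receptor genes 498. Baits were placed at annotated promoters, and which V segments were baited is not stated, so bait number and contact level cannot be told apart.

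**Figure D1:**
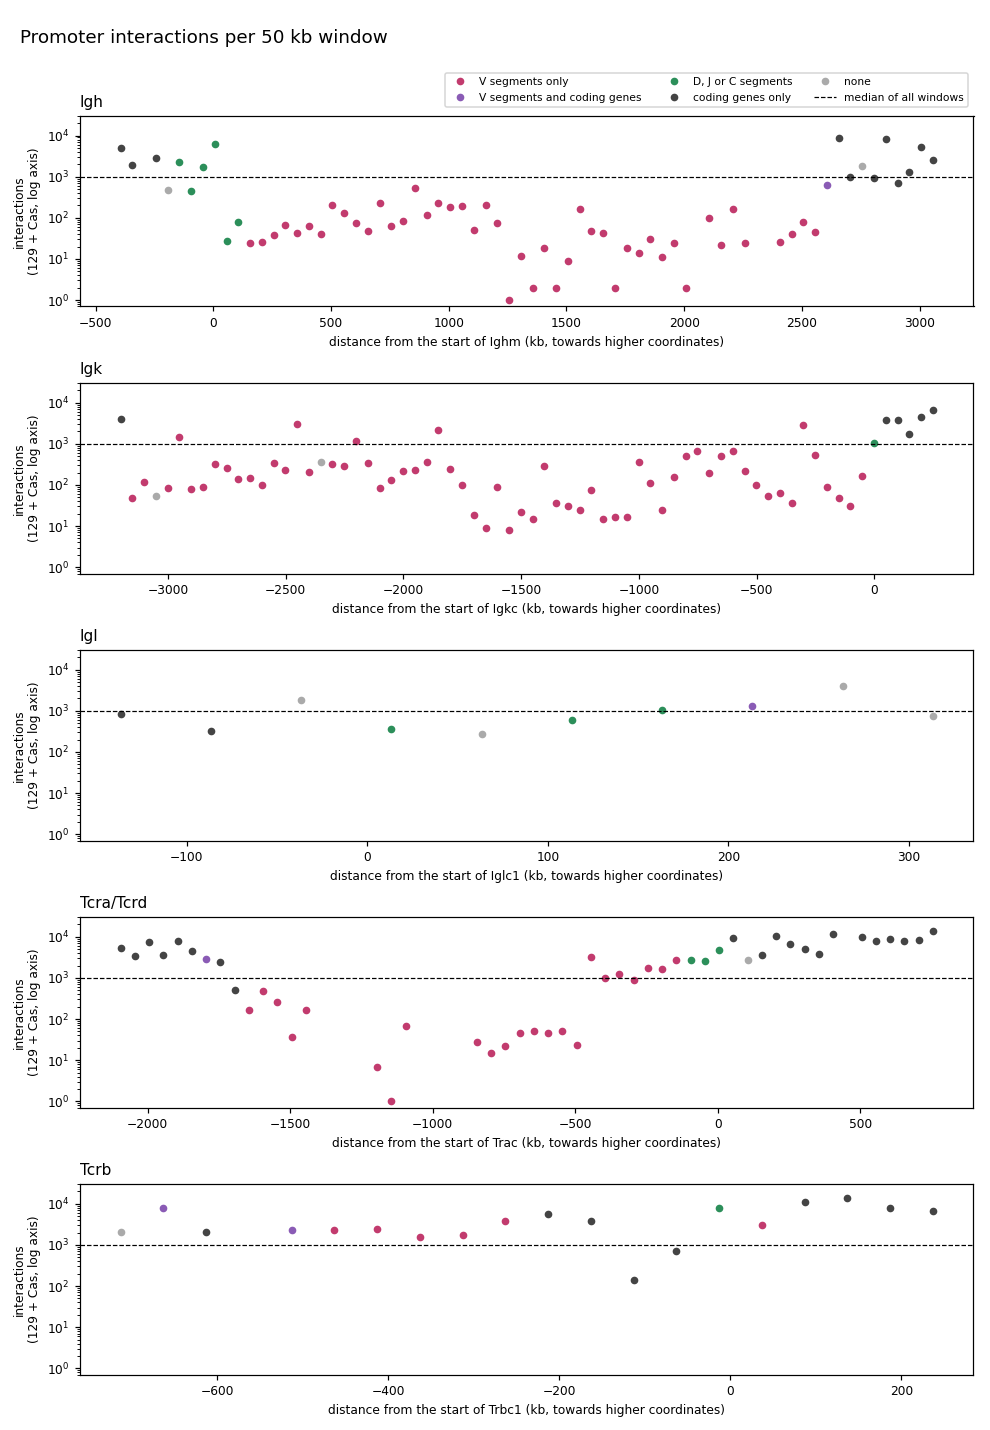
Summed interaction count (129 plus Cas, log axis) of each 50 kb window along the 5 loci, coloured by what the window holds. V segment windows of Igh and Igk lie mostly below the table's median of 974, whereas Tcrb V windows lie between 1580 and 3870.

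The change in count was abrupt at several places. In Igh, the window with the constant genes Ighm and Ighd, the J segments and some D segments (chr12:113400001-113450000) had 3070 interactions on 129 and 3173 on Cas, and the next one, with D segments, had 3 on 129 and 24 on Cas, so that the summed count was 231-fold higher in the first. At the other end of Igh, the window of Vipr2, a receptor for vasoactive intestinal peptide, had 13.7-fold more than the last V window, with 4773 interactions on 129 and 3869 on Cas (chr12:116050001-116100000), the highest sum of the locus. In Igk, the count was 79.3-fold higher in the window of Igkv6-15 and Igkv6-14, with 1635 interactions on 129 and 1220 on Cas, than in the adjoining window of Igkv8-18, Igkv6-17 and Igkv8-16, so this step lay between V segments. In Tcra/Tcrd it was 141-fold higher in the window at chr14:53750001-53800000, with 3249 interactions, than in its neighbour with 23. From that window on towards Trac, all 7 windows with alpha and delta V segments and no D, J or C segment had 908 to 3249 interactions, with a median of 1644, while the 17 windows with V segments before it had a median of 45. The division at this step was made after the counts were seen. In Tcrb, the steepest step between neighbours was 27.6-fold and lay among the trypsinogen genes between the V segments and the constant genes, not at a V segment.

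The main test asked whether the 129 count of a window departed from the autosomal share by more than windows of like count do. It was a two-sided beta-binomial test with the overdispersion fitted in deciles of the summed count and Benjamini-Hochberg adjustment over all 43762 windows with 10 or more interactions. At an adjusted p of 0.05, 8 of the 204 receptor windows were called (3.92%), beside 0.697% of all windows tested. With a single overdispersion, 21 were called, beside 0.944% of all windows. Of the 8, 4 were higher on 129, beside 0.546% of all windows, and 4 were higher on Cas, beside 0.151%. Igh had 2, Igk 3 and Tcra/Tcrd 3, and Igl and Tcrb had none. Outside the loci, 13 of 431 olfactory receptor windows were called (3.02%), all higher on 129, and 3 of 210 vomeronasal ones (1.43%). An unadjusted p below 0.05 by the same test was seen in 2136 of all 43762 windows. Of the 204 receptor windows 49 passed that limit, with 19 of 60 in Igh, 18 of 68 in Igk and 9 of 47 in Tcra/Tcrd. Of Igl windows 2 of 10 passed it, and of Tcrb windows 1 of 19. The exact binomial test, which called 51.4% of all windows, called 9 in each of these 2 loci. In the lowest decile of counts, which held 98 of the 204 windows, 4 were called (4.08%), beside 0.525% of all windows of that decile. That decile runs from 10 to 275 interactions, and its receptor windows were sparser than the rest. With 10 to 49 interactions, 3 of 42 receptor windows were called (7.14%), beside 3.23% of the rest of the table. With 50 to 99, 0 of 25 were, beside 1.37%, and with 100 to 275, 1 of 31 (3.23%), beside 0.164%. The loci are 5 and neighbouring windows share their sequence context, so these shares describe the loci and carry no test of their own. Against a share of 50% in place of the autosomal share 1 window was called, and against the share of its own locus 9 were, 5 of them among the 8. The shares of all windows called against these null shares are not given.

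Among the 4 windows called higher on 129, the one at chr12:115600001-115650000 holds Ighv1-67, Ighv1-68, Ighv1-69 and Ighv8-12, distal heavy chain V segments. It had 150 interactions on 129 against 10 on Cas, with a 129 share of 93.8% (88.8 to 97.0), a centred log2 ratio of 3.33 and an adjusted p of 0.0134 by the beta-binomial test. The remaining 3 lie in Igk. The window of Igkv14-100 and Igkv1-99 (chr6:68500001-68550000) had 923 on 129 against 240 on Cas, with a share of 79.4% (76.9 to 81.7), a ratio of 1.49 and an adjusted p of 0.00207. The window of Igkv7-33 and Igkv6-32 (chr6:70050001-70100000) had 398 on 129 against 97 on Cas, with a share of 80.4% (76.6 to 83.8), a ratio of 1.57 and an adjusted p of 0.0449. The window of Igkv8-18, Igkv6-17 and Igkv8-16 (chr6:70350001-70400000) had 36 on 129 and none on Cas, at least 12-fold higher on 129 against a floor of 3 counts, with an adjusted p of 0.0124. All 4 hold V segments and no coding gene, and each has a neighbour that was not called.

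Of the 4 windows called higher on Cas, only 2 hold V segments. The window of Trav4d-2, Trav6d-3 and Trav7d-3 (chr14:52700001-52750000) had 1 interaction on 129 against 36 on Cas, with a 129 share of 2.70% (0.0684 to 14.2), a centred log2 ratio of −4.66 and an adjusted p of 0.00147. The window at chr14:53700001-53750000, with Trav5-4, Trav6-7-dv9, Trav7-6 and Trav13-3 among 6 alpha V segments, had none on 129 and 23 on Cas, at least 7.67-fold lower on 129, with an adjusted p of 0.00456. Its neighbour towards Trac, the 3249-interaction window above, had 1844 on 129 and 1405 on Cas and a ratio of −0.06. The window of Hnrnpc and Rpgrip1 (chr14:52100001-52150000), whose promoters are printed above, had 1729 on 129 against 3462 on Cas, with a share of 33.3% (32.0 to 34.6), a ratio of −1.45 and an adjusted p of 0.00952. The window between Vipr2 and Wdr60, a cilium motor protein gene, overlaps no coding gene (chr12:116150001-116200000) and had 533 on 129 against 1309 on Cas, with a share of 28.9% (26.9 to 31.1), a ratio of −1.75 and an adjusted p of 0.000283. On both sides of it the ratios were smaller, −0.75 in a Vipr2 window with 433 on 129 and 532 on Cas, and −0.40 in a Wdr60 window with 486 on 129 and 470 on Cas.

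**Figure D2:**
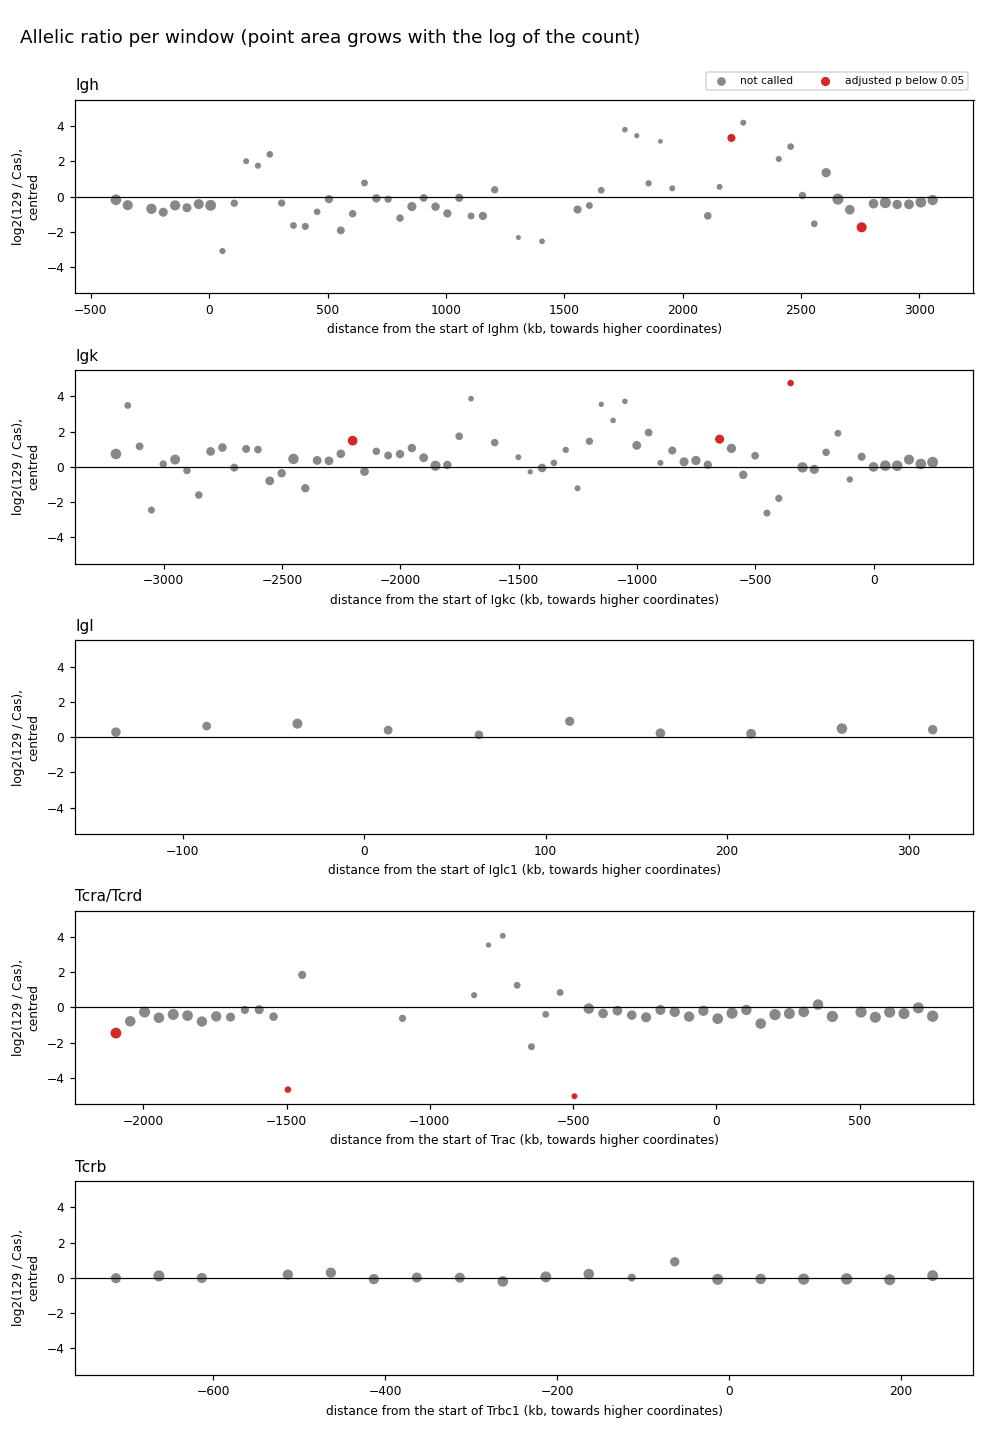
Centred log2 ratio of 129 over Cas of each tested 50 kb window along the 5 loci, with the 8 called windows marked. Ratios in Igh and Igk V segments and distal Tcra/Tcrd V segments spread widely to both sides of 0, while those of Tcrb stay between −0.20 and 0.91.

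Some windows with no interaction on an allele lay in these loci. Of the 37 windows of the table with none on Cas and 10 or more on 129 (0.0845%), 10 were receptor windows, and of the 8 with none on 129 and 10 or more on Cas (0.0183%), 1 was. These percentages are over all tested windows and are not matched for count. The receptor windows among them had 11 to 36 interactions. At 10 to 49 interactions the loci held 42 tested windows, against 248 in the rest of the table. The 10 comprised 4 in Igh with 11, 14, 18 and 24 interactions on 129, 4 in Igk with 15, 17, 19 and 36, and 2 in Tcra/Tcrd with 15 and 22. The bounds ran from at least 3.67-fold to at least 12-fold higher on 129. All hold V segments, among them Ighv1-53 to Ighv1-56, Ighv1-58 to Ighv1-60 and Ighv1-70 of the distal heavy chain family, Igkv4-79, Igkv4-80 and Igkv4-51, and Trav6-3 and Trav6-4. Only the Igk window with 36 passed the test; the Igh window with 24 had an adjusted p of 0.0779. The content of V segments and the mapping of reads on each strain were not tested.

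A ratio 2-fold or more from the median window was seen in 56 of 204 receptor windows (27.5%), 34 higher on 129 and 22 higher on Cas, beside 3.32% of all windows, 2.4% higher on 129 and 0.923% higher on Cas. V windows without coding genes gave 51 of the 56, 33 higher on 129 and 18 higher on Cas. Outside the loci, 4.41% of tested olfactory receptor windows were past 2-fold, and 12.9% of vomeronasal ones. Of the vomeronasal windows in the lowest decile of counts, 30.4% were. In the lowest decile of counts, 49 of 98 receptor windows were past 2-fold, 29 higher on 129 and 20 on Cas, beside 16% of all windows of that decile, 10.7% higher on 129 and 5.34% higher on Cas. Most of these had few interactions, and a part of the spread is counting error. Among windows with 10 to 49 interactions, 27 of 42 receptor windows were past 2-fold, against 56% of the rest of the table. With 50 to 99 interactions, 12 of 25 were, against 28.1%, and with 100 to 275, 10 of 31, against 11.2%. At 276 or more, the difference was 7 of 106 (6.6%) against 1.9%. In windows of 100 to 275 interactions the SD of the ratio was 1.05 in the loci and 0.64 in the rest, where counting error alone gave a median SD of 0.22 and 0.21.

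**Figure D3:**
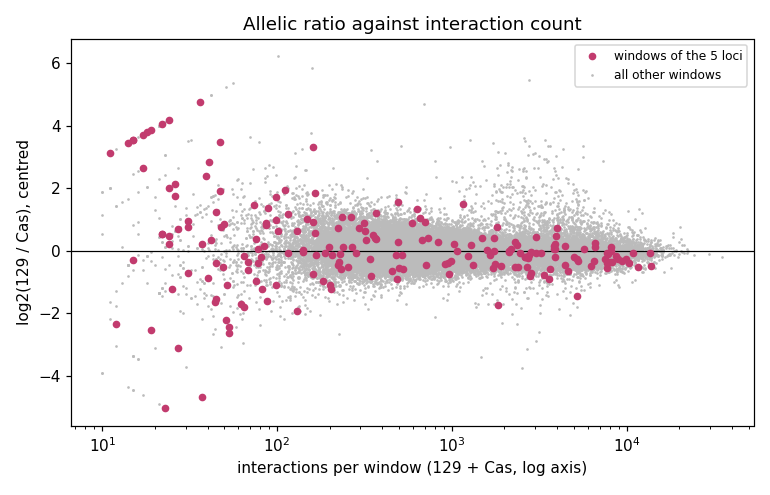
Centred log2 ratio of 129 over Cas against the summed count (log axis) of each tested window, with the receptor windows over the rest of the table. Ratios spread more at low counts in both, and 98 of the 204 receptor windows lie in the lowest decile of counts.

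Within Igh the V segments were described in 3 blocks along the chromosome. The distal block, families 1 and 8, covered 29 windows with a median summed count of 26, and in its 23 tested windows 8 were 2-fold or more higher on 129 and 6 on Cas. It summed to a 129 share of 64.1% (62.0 to 66.2) with the window that also holds the Zfp386 promoter, and to 57.9% (55.3 to 60.5) without that window, which gave 632 of its 2042 interactions. The intermediate block, of the other families, had 11 windows, a median count of 130 and a share of 48.2% (45.9 to 50.5), and 10 of its 11 ratios were below 0. The proximal block, families 2 and 5, had 7 windows, a median count of 40 and a share of 53.1% (47.3 to 58.9), from 303 interactions. Beside the called window, the largest ratios at 30 or more interactions belonged to Ighv1-77 to Ighv1-79 with 38 on 129 and 3 on Cas (2.83, adjusted p 0.239), and to a proximal window with Ighv5-8 and Ighv5-9 with 35 on 129 and 4 on Cas (2.40, adjusted p 0.497). In the other direction, Ighv3-1, Ighv11-1 and Ighv14-2 had 34 on 129 and 96 on Cas (−1.92, adjusted p 0.428), and Ighv2-7 with Ighv5-15 had 18 on 129 and 44 on Cas (−1.70).

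At the far end of Igh, the last V segments Ighv1-85 and Ighv1-86 share a window with the promoter of Zfp386 printed above. That window had 492 on 129 and 140 on Cas, a ratio of 1.35 with an adjusted p of 0.0560, while the next one, with the body of Zfp386 and with Vipr2, had a ratio of −0.15. Of the constant region windows, none was called, and their ratios lay between −0.64 and −0.43. The window of Igha and Ighe had 1124 on 129 and 1164 on Cas (−0.50), that of Ighg2b and Ighg1 had 212 on 129 and 241 on Cas (−0.64), that of Ighg3 had 892 on 129 and 879 on Cas (−0.43), and that of Ighm and Ighd with the J segments had a ratio of −0.50. The adjacent D segment window with 3 on 129 and 24 on Cas had a ratio of −3.10 and an adjusted p of 0.121. The coding genes that flank Igh had ratios below 0 in 11 of 11 windows, so the shift below the median window was not particular to windows with receptor segments.

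In Igk, 50 of 68 ratios were above 0 and the median was 0.43. V windows within 1 Mb of Igkc summed to a 129 share of 63.0% (61.9 to 64.1), those 1 to 2 Mb away to 62.9% (61.4 to 64.4) and those farther away to 65.3% (64.3 to 66.3). The windows of 1 to 2 Mb were the sparsest, with a median summed count of 34, against 162.5 nearer and 203 farther. Beyond the called windows, Igkv2-137 and Igkv1-136, at the end farthest from Igkc, had 45 on 129 and 2 on Cas (3.49, adjusted p 0.0593), and Igkv12-46, Igkv12-47 and Igkv5-45 had 94 on 129 and 17 on Cas (1.95). Lower on 129 were Igkv6-23 with Igkv8-22, at 9 on 129 and 44 on Cas (−2.62, adjusted p 0.134), and a window without a gene at 10 on 129 and 43 on Cas (−2.45, adjusted p 0.210). The Igkc window, with all J segments and Igkv3-1, had 617 on 129 and 452 on Cas, a ratio that rounds to 0.00 from below. Its neighbour with Rpia, whose promoter is printed above, had 2260 on 129 and 1575 on Cas, and the 2 windows that hold Tex37, a testis gene, had 2696 and 4096 on 129 against 1763 and 2499 on Cas. The 4096 window, which also holds Foxi3, a forkhead transcription factor, had the highest sum of Igk.

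The lambda locus is small, with 3 V segments, of which Iglv1 shares a window with J and C segments, Iglv3 with a J segment and Iglv2 with an olfactory receptor gene. All 10 Igl windows had ratios above 0, between 0.13 and 0.90, with a median of 0.41 and no window past 2-fold. The windows with C segments had 235 on 129 and 130 on Cas (0.40, Iglc1 and Iglc3) and 428 on 129 and 167 on Cas (0.90, adjusted p 0.663, Iglc2 and Iglc4). The window of Iglj2 and Iglv3 had 635 on 129 and 397 on Cas (0.22). The largest other ratios were 0.77 in a window without a gene, with 1270 on 129 and 544 on Cas, and 0.63 in a window of Hira, a histone chaperone gene, with 217 on 129 and 102 on Cas. The window of highest count, with 2580 on 129 and 1344 on Cas, overlaps neither a receptor segment nor a coding gene.

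In Tcra/Tcrd, 40 of 47 ratios were below 0, with a median of −0.34, and the flanking coding windows gave 20 of 21 below 0. The Trdc window had 1313 on 129 and 1372 on Cas (−0.52), the next one, with alpha J segments, 1437 on 129 and 1194 on Cas (−0.19), and the Trac window, which also holds part of Dad1, 2173 on 129 and 2467 on Cas (−0.64). The 7 V windows between the 141-fold step in count and Trac had ratios between −0.56 and −0.06, none past 2-fold. Of the 15 tested V windows on the other side of that step, 7 were past 2-fold, 4 higher on 129 and 3 on Cas, including the called window directly beside it. Of these, Trav6d-4, Trav7d-4, Trav8d-1 and neighbours had 137 on 129 and 27 on Cas (1.85, adjusted p 0.624), and the window of Trav14-1, Trav3-2 and Trav9-2 had 11 on 129 and 40 on Cas (−2.22, adjusted p 0.367). The highest count of the locus was in the window of the cardiac myosin genes Myh6 and Myh7, with 6832 on 129 and 7028 on Cas.

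Ratios in Tcrb lay close to the median window. The 19 ratios had a median of 0.01 and an SD of 0.24, against an SD of 0.45 over all windows, and none was past 2-fold. The 0.45 includes sparse windows, whereas 1 Tcrb window lay in the lowest decile of counts. At 276 or more interactions the SD was 0.38 in the table outside the loci. The 8 windows with Trbv segments ranged between −0.20 and 0.29. Trbv4 to Trbv10 shared a window with 1435 on 129 and 856 on Cas, at the top of that range, and Trbv27 to Trbv30 one with 2101 on 129 and 1769 on Cas, at its foot. The window of Trbc1 and Trbc2, which also holds the trypsin gene Prss2, had 4361 on 129 and 3380 on Cas (−0.08). The largest ratio belonged to Prss1, another trypsin gene, with 504 on 129 and 195 on Cas (0.91, adjusted p 0.611). The highest sum was in the window of the calcium channel gene Trpv5 and the blood group gene Kel, with 7724 on 129 and 5895 on Cas.

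Summed over each locus, the 129 share lay below the autosomal 57.57% in Igh and Tcra/Tcrd and above it in Igk and Igl. The share was 51.2% (50.7 to 51.6) in Igh, where chromosome 12 as a whole had 57.4%, and 50.8% (50.6 to 51.1) in Tcra/Tcrd, where chromosome 14 had 55.3%. It was 62.8% (62.4 to 63.3) in Igk and 57.8% (57.5 to 58.1) in Tcrb, both on chromosome 6 with 57.8%, and 65.4% (64.5 to 66.3) in Igl, where chromosome 16 had 57.9%. Set among autosomal spans of the same length, 8 of 627 had a lower share than Igh, 613 of 627 a lower one than Igk, 4197 of 4341 a lower one than Igl, 13 of 724 a lower one than Tcra/Tcrd and 995 of 2168 a lower one than Tcrb. The intervals hold counting error only, and the ranks carry no test, so they are descriptions. The sums follow the high-count flanking windows. With V windows alone, the share was 52.4% (50.8 to 54.1) in Igh, 64.0% (63.3 to 64.7) in Igk, 54.0% (53.1 to 54.8) in Tcra/Tcrd and 57.2% (56.4 to 58.0) in Tcrb.

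**Figure D4:**
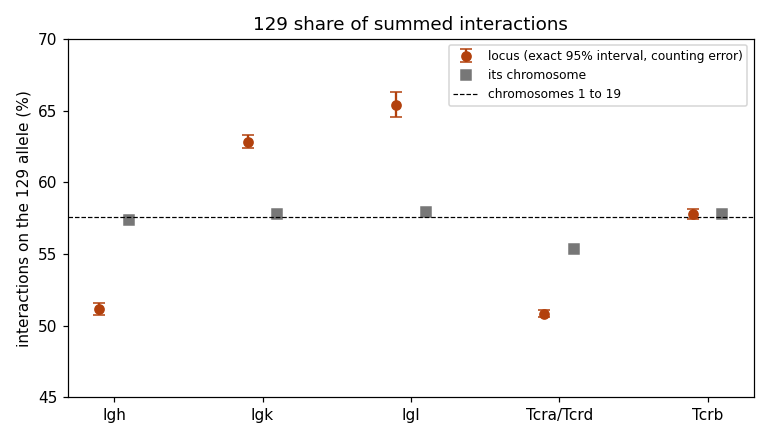
129 share of the summed interactions of each locus in percent, with exact 95% intervals (counting error only), beside the share of its chromosome and the autosomal share of 57.57%. Igk and Igl lie above their chromosomes, Igh and Tcra/Tcrd below, and Tcrb at its chromosome's share.

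Adjoining windows past 2-fold were counted by direction. Of 186 adjoining pairs of tested windows in the loci, 24 had both members 2-fold or more from the median window, of which 15 were both higher on 129, 3 both higher on Cas and 6 opposite. In Igk, 3 of 12 such pairs were opposite, in Igh 1 of 8 and in Tcra/Tcrd 2 of 4. Windows past 2-fold were themselves uneven, 34 higher on 129 and 22 on Cas over the loci, and 19 and 6 in Igk. Such a lean alone gives pairs of the same direction. No share of such pairs over the rest of the table is given, so no agreement between neighbours is read from these counts.

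The interaction distance is a single value for each allele and window, deposited in steps of 500 bp. It was compared in the 171 receptor windows whose alleles each had at least 10 interactions. Whether the value is a mean or a median is not stated. The receptor V windows reached far: over V windows the median distance was 1845.5 kb (129) and 1771.5 kb (Cas), 288 kb (129) and 243.5 kb (Cas) over D, J or C windows, and 90 kb (129) and 70 kb (Cas) over windows with coding genes only. Over the table it was 904 kb (129) and 899 kb (Cas) in windows without a coding gene, and 183 kb (129) and 187.5 kb (Cas) in windows with one. Both alleles were at 1 Mb or more in 60.6% of V windows, 73.1% of those in Igh, 58.7% in Igk, 68.8% in Tcra/Tcrd and none of those in Tcrb, against 41.2% of the table's windows without a coding gene. Tcrb V windows had medians of 544 kb on 129 and 494.75 kb on Cas. The shortest distance in the loci was at the Ighm and Ighd window, at 12 kb on 129 and 10 kb on Cas.

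**Figure D5:**
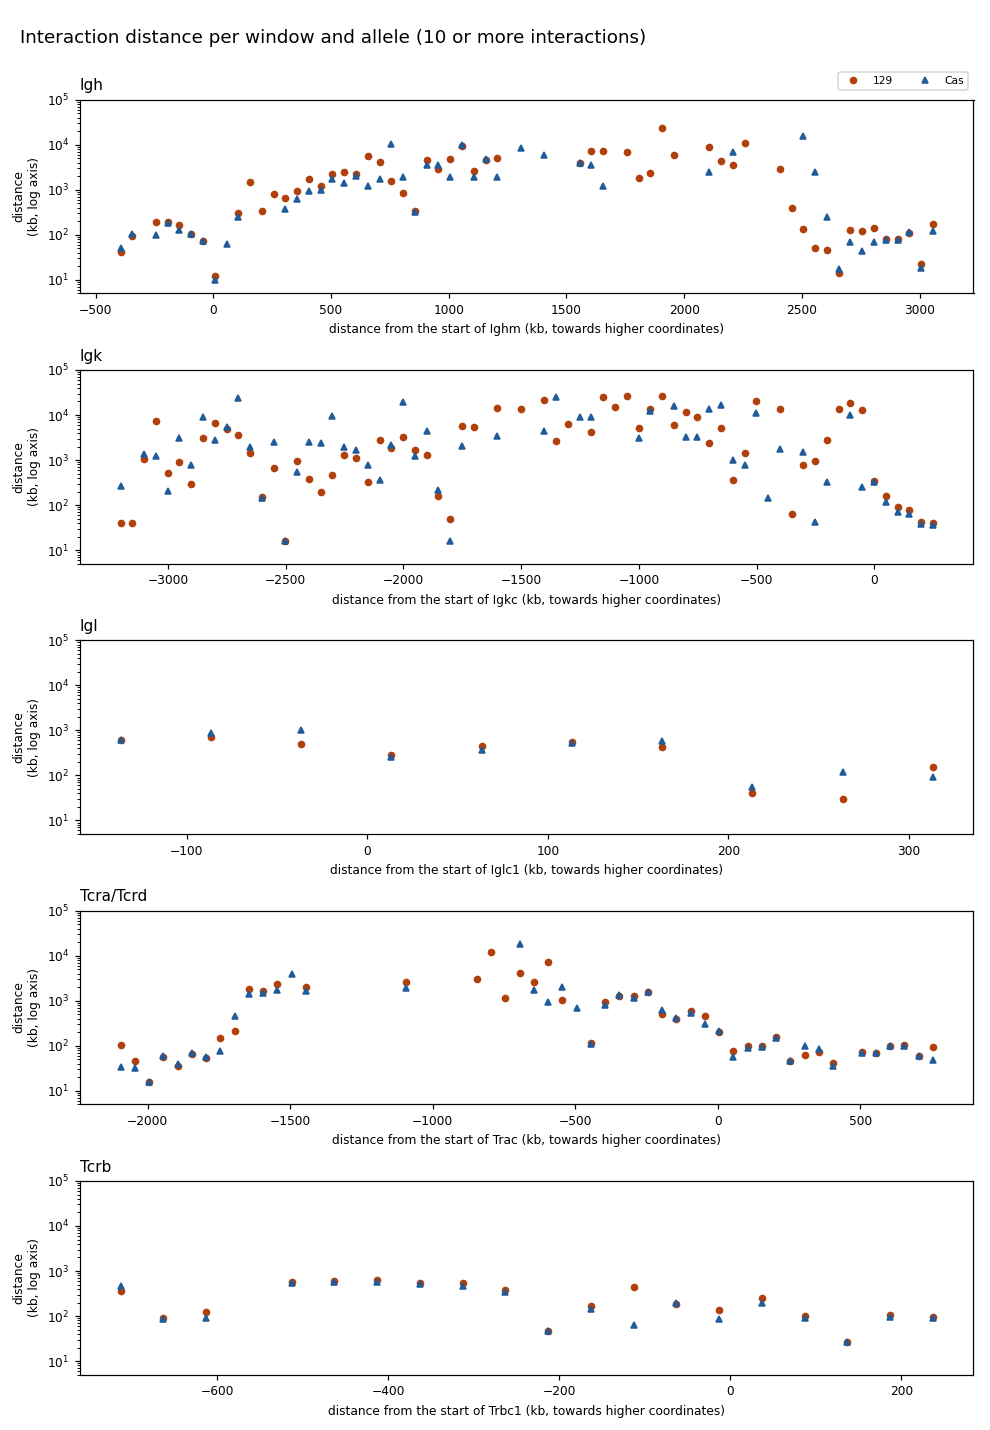
Interaction distance in kb (log axis) on the 129 and the Cas allele for each 50 kb window along the 5 loci. Each allele is drawn where it had at least 10 interactions, whatever the count of the other allele. Distances over V segments of Igh and Igk are mostly at or above 1 Mb and differ between the alleles in many windows, unlike those of Tcrb.

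Distances 2-fold or more apart between the alleles were seen in 53 of 171 receptor windows (31.0%), beside 17.1% of all windows, with 26 longer on 129, beside 8.37%, and 27 longer on Cas, beside 8.73%. The V windows gave 42 of 94 (44.7%), beside 23.1% of the table's windows without a coding gene. By locus these were 11 of 26 in Igh, 29 of 46 (63.0%) in Igk, 2 of 16 in Tcra/Tcrd and 0 of 6 in Tcrb. These shares are not matched for count, and many V windows were sparse. Outside the loci, distances were 2-fold or more apart in 6.03% of olfactory receptor windows and 22% of vomeronasal ones. Among the named windows, Igkv16-104 and Igkv15-103 had 461 kb on 129 and 9510 kb on Cas, and a window without a gene beside it 191 kb on 129 and 2400 kb on Cas. The Igkv3-5 to Igkv3-2 window had 13133 kb on 129 and 252 kb on Cas, and the window of Igkv6-13 had 948.5 kb on 129 and 42 kb on Cas. In Igh, Ighv1-80 and Ighv1-81 had 136 kb on 129 against 15378 kb on Cas, from 46 interactions on 129 and 32 on Cas. In the same locus Ighv1-64 and Ighv1-65 had 8956.5 kb on 129 and 2501.5 kb on Cas. In Tcra/Tcrd, Trav5-2 and neighbours had 7420 kb on 129 against 940 kb on Cas, from 23 interactions on 129 and 22 on Cas. A window with 20 to 50 interactions on an allele gives its distance from few values, and the distance carries no error here. The called windows that could be compared were of both kinds: in Igh, the 150-interaction window had 3525 kb on 129 and 6919.5 kb on Cas, and the window beside Wdr60 119.5 kb on 129 and 43.5 kb on Cas. In Tcra/Tcrd, the Hnrnpc window had 104 kb on 129 and 33 kb on Cas. In Igk, the Igkv14-100 window had 1088 kb on 129 and 1699.5 kb on Cas, and the Igkv7-33 window 5251 kb on 129 and 16674 kb on Cas. In these 5 windows the allele with fewer interactions had the longer distance. How often this held over the loci or the table is not given, so it describes these windows only. The Igkv3-5 to Igkv3-2 window above, with 111 interactions on 129 and 54 on Cas, went the other way. So did the Igkv6-13 window, with 288 on 129 and 232 on Cas.

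As a comparison, 39 genes of recombination and of receptor signalling were looked up outside the loci. Of these, 38 had analysed windows, and Btk was not analysed here. They covered 81 windows, of which 1 was called (1.23%), beside the 0.697% of all windows given above. It was the window of Prkdc at chr16:15600001-15650000, with 1885 on 129 and 337 on Cas, a ratio of 2.03 and an adjusted p of 0.00267 by the beta-binomial test. Prkdc is the catalytic subunit of the DNA-dependent protein kinase, which acts in double-strand break repair. The window also holds Mcm4, a subunit of the replication helicase, so it cannot be read for Prkdc alone. Over the genes the ratio of summed counts had a median of 0.03, with 20 above 0 and 18 below, and ran from −0.64 for Cd3d and Cd3g, chains of the T cell receptor complex, with 3792 on 129 and 4335 on Cas, to 0.85 for Vpreb3, a pre-B cell gene, with 3584 on 129 and 1451 on Cas. Rag1 and Rag2, which share a window, had 2890 on 129 and 1998 on Cas, a ratio of 0.08.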

How the data were processed

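Promoter Capture Hi-C was done by the submitters on F121-6 cells in 2 samples. Per the labels' protocols, fixation was with 2% formaldehyde, HindIII digestion and ligation took place inside nuclei, 22225 promoters were baited, and paired reads were 100 bp long. Bowtie2 and mm10 are named, per the submitters' processing notes. Allele assignment, duplicate removal and the merging of samples are not stated. The deposited values are whole-number counts per allele and 50 kb window, and distances taken to be in bp, neither normalised. Nothing says that the samples came from separate cultures, and the pooled columns were compared allele against allele. Cas reads differ more from the reference and may be lost in mapping.

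Windows overlapping a gene by its RefSeq position (GRCm38.p6, the mm10 assembly) were given that gene, without strand. The beta-binomial test used a minimum of 10 interactions and a threshold of 0.05. On simulated data with the same windows it called 10% of windows simulated with a 2-fold change, 84% of those with 4-fold, 94% of those with 8-fold and 2 of 43562 unchanged ones, whereas the exact binomial test called 59.4% of the unchanged ones. The counts were simulated from the test's own model and fitted overdispersion, so both results for unchanged windows were built in. The 50 windows of each fold change were drawn from all tested windows, so their shares do not apply to sparse V windows. Members, lists and alternatives were chosen with earlier results of these data known. The text names all called windows, per locus up to 3 windows per direction by ratio at 30 or more interactions and up to 2 by distance ratio with at least 20 interactions on both alleles, the highest-count window, the constant region windows, and edges and windows without a Cas or 129 interaction, which were chosen after their values were seen. Genes with model or clone numbers are not named. Alternatives were other minimums, thresholds, null shares and dispersions. The tools were scipy 1.17.1, numpy 2.4.6, matplotlib 3.10.9 and pandas 2.3.3 under Python 3.11.15.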

Additional observations from a re-analysis of the deposited data

How the results depend on the processing

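The samples are pooled in the table, so no replicate could be left out. No paired analysis was possible because the deposited columns carry no replicate. The 8 calls depended most on the model of spread and the null share. With a single overdispersion there were 21 calls, 12 higher on 129 and 9 on Cas, beside 0.944% of all windows. With the exact binomial test there were 142 (69.6%), 68 higher on 129 and 74 on Cas, beside 51.4% of all windows. A minimum of 50 interactions left 5, with 2 higher on Cas, and a threshold of 0.01 left 5, with 1 higher on 129. A null share of 50% left 1, which was higher on 129, and 0 higher on Cas. With the locus's own share as the null, chosen after seeing the data, there were 9 calls, 5 of them among the 8. For the other minimum, threshold and null shares the share of all windows called is not given. Whether the loci exceed the table under them cannot be read from these counts.

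The mean of window shares was 55.2% in Igh, 65.4% in Igk, 52.3% in Tcra/Tcrd and 58.8% in Tcrb. The Igh share was 50.4% without its highest-count window, and without called windows, an alternative chosen later, the shares were 51.8% in Igh, 62.2% in Igk and 51.4% in Tcra/Tcrd. Between the first and the last segment, the share was 63.6% in Igk, 63.3% in Igl and 58.5% in Tcrb. The median ratio of −0.061 was −0.029 against the own chromosome's median and −0.094 at a minimum of 50 interactions. At that minimum per allele, 23.4% of the distances of 128 receptor windows were 2-fold apart, and the share of all windows at that minimum is not given. By the binomial test, 32 of the list's genes had a called window. Counting a shared window once for each gene, that test called 49 of the list's 85 windows, beside 51.4% of all windows.

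Depth limits the V windows: at 10 to 49 interactions a ratio must be large to pass, and a window that missed the threshold is not shown to be even. Reads shared by copies of V segments, bait number, strain differences in segment content and mapping of Cas reads were not tested.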
